A study of Mus musculus with 4 samples.

Results

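The cells described here are non-proliferating myeloid cells from mouse kidneys taken 2 and 30 days after ischemia-reperfusion injury (IRI, a period without blood flow that is then restored), and the question is how their RNA differed between these times. Members were chosen by measured values. A barcode was a member if Tyrobp, Fcer1g and Ctss together reached 20 of every 10000 unique molecular identifiers (UMIs, each standing for 1 captured RNA molecule). S100a8 and S100a9, calcium-binding proteins that neutrophils hold in bulk, had to stay under 100 of every 10000 UMIs. Top2a and Mki67, genes of dividing cells, had to have fewer than 3 UMIs together. Members also needed 500 UMIs, 300 genes and at most 50% mitochondrially encoded UMIs. The rule gave 4380 members of 27230 barcodes in the series, 1960 of them from the day 2 library and 2420 from the day 30 library. These were 21.8% (20.96 to 22.7%) of the 8988 day 2 barcodes within the limits and 34.8% (33.7 to 36.0%) of the 6946 at day 30, as exact Clopper-Pearson 95% intervals.

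All 4 groups of the series were BAC-CluGFP mice, which carry a bacterial artificial chromosome that ties green fluorescent protein (GFP) to clusterin (Clu). One group is labelled untreated. The other 3 had 35 min of IRI, and their kidneys were taken at day 2, day 7 or day 30. Digested kidneys were sorted for GFP-positive cells and captured with the 10x Genomics 3′ chemistry, 1 library per group. Members therefore passed a sort for reporter signal and do not sample all kidney myeloid cells. The sources used here do not give the sex, the age or the number of animals behind a library. With 1 library a side there was no spread between animals, so no test was run, and every interval covers counting error only.

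Tissue macrophages and monocyte-derived cells share the 3 genes of the rule: Tyrobp and Fcer1g encode adaptors of activating receptors, and Ctss encodes a lysosomal protease that trims the invariant chain of major histocompatibility complex (MHC) class II. After kidney ischemia, blood monocytes enter the tissue, first with an inflammatory program and later as macrophages that clear debris, handle lipid and shape the matrix. Resident kidney macrophages are known for complement C1q, MHC class II and the receptor Cx3cr1, and dendritic cells for presenting antigen to T cells.

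The markers bore out the label only as a mixture of macrophages, monocyte-derived cells and dendritic cells. After each cell was thinned to 3500 UMIs, Csf1r, the receptor for the macrophage growth factor, had a UMI in 67.1% of cells at day 2 and 61.3% at day 30, against 3.24% and 8.89% of epithelial barcodes, the measure of free RNA defined with the depths. Cd68, a lysosomal glycoprotein of macrophages, had a UMI in 73.6% of cells at day 2 and 64.2% at day 30 (6.12% and 8.89% of epithelial barcodes). The macrophage adhesion receptor Adgre1 (F4/80) had a UMI in 42.4% of cells at day 2 and 23.5% at day 30 (2.16% and 1.39%). At least 2 UMIs over the dendritic markers Flt3, Zbtb46, Xcr1, Clec9a, Cd209a, Ccr7 and Wdfy4 were found in 6.22% (5.196 to 7.39%) of day 2 members and 23.7% (21.996 to 25.4%) of day 30 members. These genes were unequal. At least 1 UMI of Cd209a was found in 6.89% of cells at day 2 and 24.6% at day 30. Flt3 was found in 1.43% and 4.83%, Zbtb46 in 1.33% and 4.17% and Xcr1 in 0.0510% and 1.61%. The class therefore leans on Cd209a and is not a count of dendritic cells. Cd3e, a subunit of the T cell receptor complex, had a UMI in 0.357% and 0.165%, and Cd79a of B cells in 0% (0 of 1960) and 0.207%.

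The rule acted unequally on the libraries. Of 6133 day 2 barcodes that passed the marker minimum, the S100a8 and S100a9 limit removed 3019, against 3 of 2664 at day 30. The limit on Top2a and Mki67 then removed 1154 and 241. So most day 2 barcodes over the marker minimum were left out, and most at day 30 were kept. Just inside the marker minimum, at 20 to 25 per 10000, lay 26 day 2 and 104 day 30 members, and 37 and 103 barcodes lay just outside, at 15 to 20. Just inside the S100 limit, at 80 to 100, lay 48 and 0 members, and 38 and 2 barcodes lay just outside, at 100 to 120. As values that chose the cells, Tyrobp stood at 2172 CPM at day 2 and 1869 CPM at day 30, where CPM is summed UMIs per 1000000 summed UMIs of the members. Fcer1g stood at 2477 CPM at day 2 and 1731 CPM at day 30, Ctss at 2218 CPM at day 2 and 3529 CPM at day 30, S100a8 at 626 CPM at day 2 and 28.0 CPM at day 30 and S100a9 at 699.5 CPM at day 2 and 18.9 CPM at day 30. Top2a stood at 17.6 CPM at day 2 and 9.57 CPM at day 30 and Mki67 at 15.1 CPM at day 2 and 10.9 CPM at day 30. These 7 genes are left out of every count that follows.

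Depth was close between the sides: a median of 9687 UMIs per member at day 2 and 8682 at day 30, with lowest members at 3891 and 5977 and totals of 20651764 and 24872460 UMIs. Mitochondrially encoded UMIs made up a median of 2.87 and 3.43%. The same rule found 67 untreated and 303 day 7 members, used as context only. The untreated members were shallow (median 3995 UMIs), 1 UMI there equals 2.80 CPM, and proximal tubule genes made up 17042 CPM of their RNA. Day 7 members had a median of 21939 UMIs, in a library with no barcode under 18362. Day 2 and day 30 shared 20 barcodes, 3 of them members in both.

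Free RNA was read from barcodes of the same libraries with at least 2 UMIs of the epithelial genes Epcam, Cdh16 and Cdh1 and no UMI of Tyrobp, Fcer1g or Ctss: 278 at day 2 (median 9046 UMIs) and 360 at day 30 (median 8987.5). Their levels stand beside the members' levels as "epithelial barcodes". Kidney epithelium expresses some of these genes itself, and fewer cells of a kind and less RNA per cell cannot be told apart in summed counts. Requiring no UMI of Tyrobp, Fcer1g or Ctss picks barcodes with little free myeloid RNA. The levels of myeloid genes in epithelial barcodes may therefore understate free RNA.

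Across the 6238 measured genes (at least 20 CPM in either library and 20 UMIs in both together), most levels were close: 4399 (70.5%) differed by less than 1.5-fold. A call of higher or lower needed a CPM ratio of 2-fold or more and an exact 95% counting interval of that ratio that left out 1; intervals printed after a fold are of this kind. By this rule 512 genes, 8.21% of those measured, were higher at day 30 and 260, 4.17%, were lower. At least 4-fold differences were seen in 164 higher and 69 lower genes. The median log2 difference, day 30 minus day 2 on the log2(CPM + 10) scale, was 0.01. These percentages and this median are the background for the gene lists that follow.

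**Figure D1:**
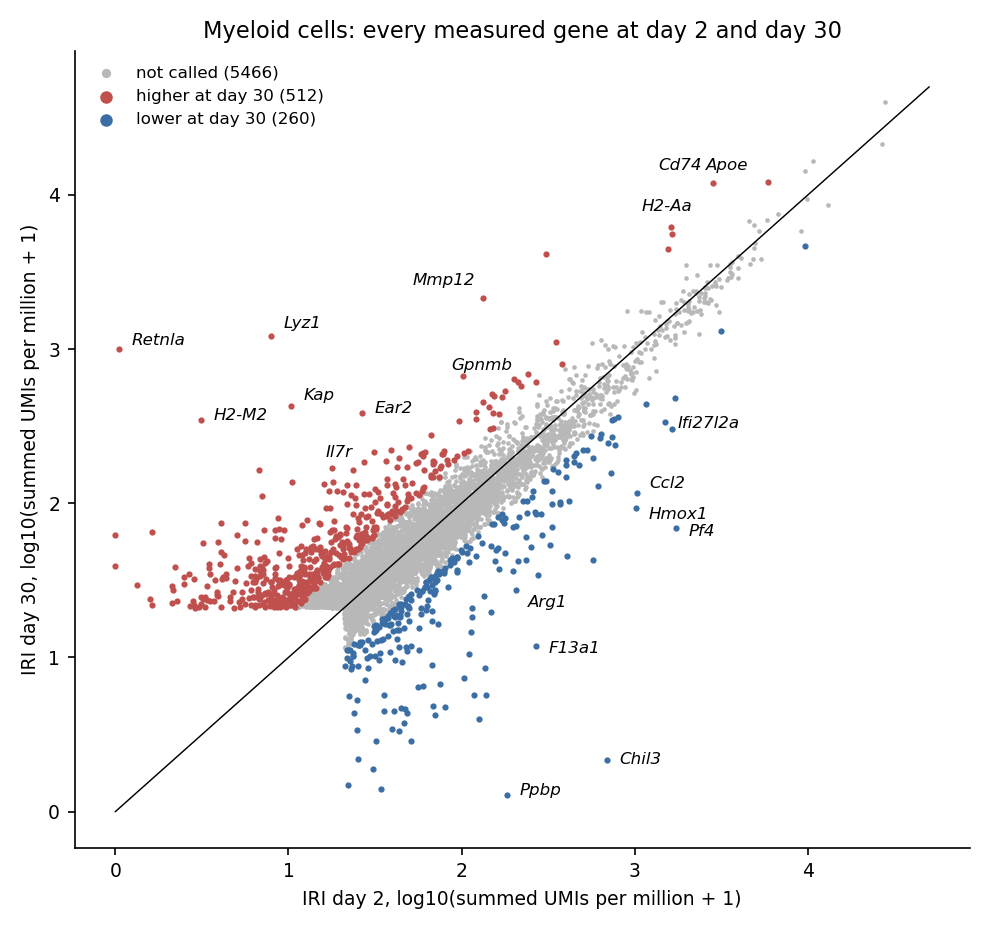
Summed level of each of the 6238 measured genes in day 2 (x axis) and day 30 (y axis) members, both as log10(CPM + 1), with genes called higher in red and lower in blue and equal levels on the line. Retnla, Lyz1 and H2-M2 lie far above the line at low day 2 level, and Chil3 and Ppbp far under it.

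The largest difference upward was in Retnla (ENSMUSG00000061100, chr16:48842551-48844461, plus strand; mm10 coordinates, as all that follow), which encodes a secreted resistin-like protein made by macrophages under type 2 cytokines. It stood at 0 CPM in the untreated cells, 0.0484 at day 2, 479 at day 7 and 1002 at day 30, from 1 UMI at day 2 and 24923 at day 30. The ratio was 20694 with a counting interval of 3714 to 817391, and with 1 count on one side even its order of magnitude is not fixed. A Retnla UMI was found in 0 of 1960 thinned day 2 members, which allows a share of up to 0.188% (upper bound of the exact interval). At day 30 it was found in 36.1% (34.2 to 38.1%) of members and in 16.4% of epithelial barcodes, where its level was 50.3 CPM. Its UMIs were concentrated: the 10% of day 30 members with most Retnla held 80.4% of them.

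Mmp12 (ENSMUSG00000049723, chr9:7344381-7369499, plus strand), the macrophage metalloelastase, stood at 393 CPM in the untreated cells, 132 at day 2, 1938 at day 7 and 2147 at day 30. Day 7 and day 30 were both far above day 2, and the untreated cells lay between. The day 30 level was 16.3-fold (15.6 to 16.9) that of day 2, with 2727 and 53394 UMIs, and the epithelial barcodes held 76.5 CPM at day 30. H2-M2 (ENSMUSG00000016283, chr17:37480851-37483552, minus strand), a nonclassical MHC class I gene known from activated dendritic cells and macrophages, stood at 42.1 CPM in the untreated cells, 2.13 at day 2, 41.7 at day 7 and 344 at day 30, 161-fold (120.02 to 222) higher at day 30. Atp6v0d2, a subunit of the vesicular proton pump found in osteoclasts and lipid-laden macrophages, stood at 11.2 CPM in the untreated cells, 5.71 at day 2, 203.6 at day 7 and 163.3 at day 30, 28.6-fold (23.8 to 34.6) higher. Il7r, best known as a lymphocyte receptor, stood at 30.9 CPM in the untreated cells, 16.8 at day 2, 132 at day 7 and 169 at day 30, 10.1-fold (9.06 to 11.3) higher, while Cd3d, Cd3e and Cd3g together had few UMIs (levels of 1.33, 0.885 and 3.22 CPM at day 30).

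4 other genes among the 12 largest upward folds had a higher level in the day 30 epithelial barcodes than in the members. Kap, an androgen-regulated proximal tubule gene, stood at 9.30 to 427 CPM from day 2 to day 30 in members and at 175 and 2631 CPM in epithelial barcodes. Cp (ceruloplasmin) stood at 6.05 to 110.2 CPM in members and 452 CPM in day 30 epithelial barcodes. Vcam1, an adhesion molecule of injured tubule and endothelium, stood at 9.54 to 136 CPM in members and 657 CPM there, and Tagln of smooth muscle at 15.1 to 132 CPM and 681 CPM. Library-wide RNA is the summed profile of all of a library's barcodes within the limits, members included. Subtracting it thus also takes away RNA of the cells themselves. Counts that turned negative were set to 0, so a difference after subtraction can rest on a level of 0. With 30% of each profile subtracted as library-wide RNA, none of the 4 kept its call (log2 differences of 0.00, 1.24, 0.55 and 0.00). Over all 512 higher genes, 282 had a higher level in the day 30 epithelial barcodes than in the members, and 76 a level under 10% of the members'. Over the 260 lower genes, 27 were above the members in the day 2 epithelial barcodes and 88 under 10% of them. These counts were not made over all measured genes, so they cannot be read as particular to the called genes. Under the same rule, the epithelial barcodes had 9.47% of their measured genes higher and 3.36% lower, and 152 of the 512 and 33 of the 260 genes were called there too, in the same direction.

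3 of the largest upward folds were in genes with near-identical copies, so their counts are uncertain. Lyz1 stood at 0 CPM in the untreated cells, 6.97 at day 2, 107 at day 7 and 1211 at day 30, a ratio of 174, but 38.4% of the 31-base words in its last 400 bases also occur in Lyz2, the macrophage lysozyme. Lyz2 itself stood at 9665 CPM at day 2 and 14214 CPM at day 30, and the pair together at 9672 and 15424 CPM, 1.59-fold. The Lyz1 part of that sum was 0.0721% at day 2 and 7.85% at day 30 in members and 0% and 10.1% in epithelial barcodes, so this split differed by library in both kinds of barcode, and the same limit holds for Lyz1 wherever it is named. Ear2, an eosinophil-associated ribonuclease also known from macrophages, stood at 67.3 CPM in the untreated cells, 25.7 at day 2, 309.5 at day 7 and 386 at day 30, 15.02-fold (13.8 to 16.4) higher, and shares 42.7% of these words with Ear1. Gm10116 stood at 11.2 CPM in the untreated cells, 307 at day 2, 2354 at day 7 and 4116 at day 30, 13.4-fold (13.1 to 13.8) higher, and shares 67.3% with the ferritin light chain gene Ftl1.

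Ftl1 went the other way, from 5461 CPM in the untreated cells, 9620.2 at day 2, 9089.7 at day 7 and 4631 at day 30. Together Ftl1 and Gm10116 stood at 9927 CPM at day 2 and 8747 CPM at day 30, a ratio of 0.881. The Gm10116 part of that sum was 0.205% in the untreated cells, 3.09% at day 2, 20.6% at day 7 and 47.1% at day 30. In the epithelial barcodes it was 11.8% at day 2 and 43.9% at day 30. The split between the 2 genes thus differed by library in both kinds of barcode, and neither call can be read as a change of ferritin light chain RNA.

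**Figure D2:**
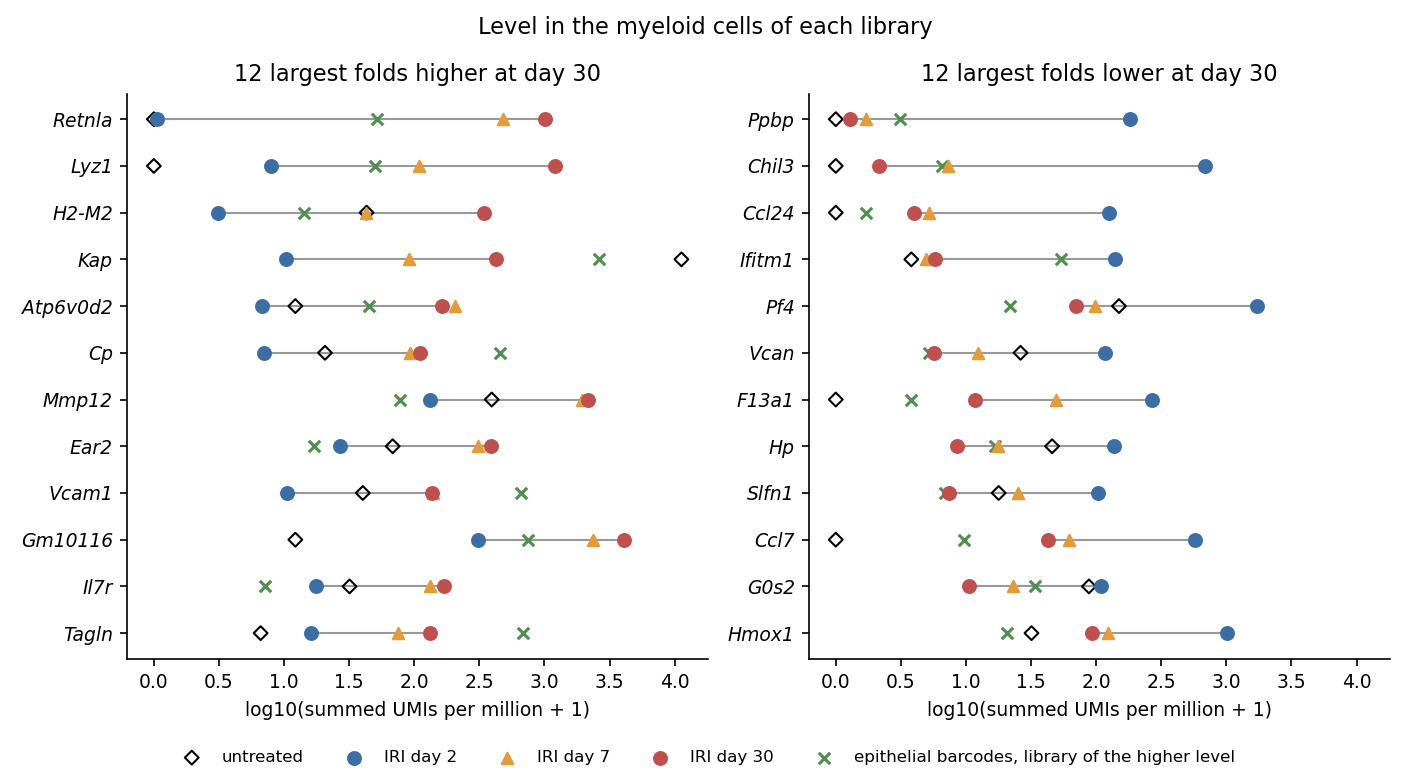
Level of the 12 genes with the largest fold in each direction, as log10(CPM + 1), in untreated, day 2, day 7 and day 30 members, with crosses for the epithelial barcodes of day 30 (left panel) or day 2 (right panel). On the left, day 7 lies nearer day 30 for Retnla, Mmp12, Ear2 and Il7r, and the crosses of Kap, Cp, Vcam1 and Tagln lie above the members at day 30.

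Downward, the largest folds were in Ppbp and Chil3. Chil3 (ENSMUSG00000040809, chr3:106147554-106167564, minus strand), a chitinase-like protein of monocytes and alternatively activated macrophages, stood at 0 CPM in the untreated cells, 689 at day 2, 6.27 at day 7 and 1.17 at day 30. Chil3 was present at day 2 and at or near 0 in the other 3 libraries (14225 and 29 UMIs at day 2 and day 30), 591-fold (411 to 882) lower. Ppbp, a platelet chemokine also made by monocytes, stood at 0 CPM in the untreated cells, 181 at day 2, 0.697 at day 7 and 0.281 at day 30, from 3746 and 7 UMIs, 645-fold (313 to 1604) lower. The other 7 genes of the platelet list were under the measured minimum. Itga2b stood at 1.501 CPM at day 2 and 1.13 CPM at day 30, Clec1b at 0.920 CPM at day 2 and 9.41 CPM at day 30 and Treml1 at 0.0968 CPM at day 2 and 0.563 CPM at day 30, while Gp1ba, Gp5, Gp9 and Tubb1 had no UMI at day 2 and at most 1 at day 30. The part of platelets in the Ppbp level was not tested.

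Pf4 (ENSMUSG00000029373, chr5:90772435-90773383, plus strand), a chemokine of platelets that tissue macrophages also make, stood at 149 CPM in the untreated cells, 1721 at day 2, 96.7 at day 7 and 68.4 at day 30. Only day 2 was high, 25.2-fold (23.96 to 26.4) above day 30. F13a1, the coagulation factor XIII subunit of monocytes and macrophages, stood at 0 CPM in the untreated cells, 268 at day 2, 48.5 at day 7 and 10.8 at day 30, 24.9-fold (22.02 to 28.2) lower at day 30. Hmox1, the inducible enzyme that degrades heme, stood at 30.9 CPM in the untreated cells, 1017 at day 2, 122 at day 7 and 91.6 at day 30, 11.1-fold (10.6 to 11.6) lower. The eosinophil-attracting chemokine Ccl24 (125 to 2.98 CPM), the monocyte-attracting Ccl7 (575 to 41.7 CPM), the interferon-inducible Ifitm1 (137 to 4.74 CPM), the matrix proteoglycan Vcan (117 to 4.66 CPM), haptoglobin Hp (136 to 7.56 CPM), Slfn1 (102 to 6.35 CPM) and the lipase inhibitor G0s2 (109 to 9.57 CPM) complete the 12. For Ifitm1 and G0s2 the level in day 2 epithelial barcodes was 52.7 and 32.8 CPM. Subtraction of 30% library-wide RNA turned both differences positive (0.55 and 0.77 on the log2 scale). As negative counts were set to 0, these values give no size of a reversal.

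Genes of recruited monocytes were lower more often than the 4.17% of all genes. Of 19 measured members, 1 was higher and 11 lower, with a median log2 difference of -2.12 against 0.01 over all genes. Plac8, a small cysteine-rich protein of inflammatory monocytes, stood at 14.02 CPM in the untreated cells, 404 at day 2, 43.3 at day 7 and 44.3 at day 30, 9.11-fold (8.56 to 9.71) lower. Thbs1 (thrombospondin 1) was 8.22-fold (7.64 to 8.86) lower. Arg1, the arginase of alternatively activated macrophages, stood at 0 CPM in the untreated cells, 204.6 at day 2, 481 at day 7 and 26.3 at day 30, highest at day 7 and 7.79-fold (7.17 to 8.47) lower at day 30 than at day 2. Fn1 (fibronectin) was the 1 higher member, at 2.80 CPM in the untreated cells, 377 at day 2, 1373 at day 7 and 798 at day 30, 2.12-fold (2.06 to 2.17) higher. The chemokine receptor Ccr2, which brings monocytes out of the marrow, was not called, at 969 CPM at day 2 and 704 CPM at day 30. The list counts sit beside a rule that removed 3019 S100a8-bearing barcodes at day 2 and 3 at day 30, and under a stricter S100 limit of 20 per 10000 the list still had 11 lower and 1 higher members.

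Genes of resident macrophages went both ways. Of 18 measured members, 3 were higher and 4 lower, with a median log2 difference of -0.28. C1qa, a chain of complement C1q, stood at 2474 CPM in the untreated cells, 897 at day 2, 1821 at day 7 and 1762 at day 30, a ratio of 1.96 that misses the 2-fold limit, and C1qb at 2367 CPM in the untreated cells, 1213 at day 2, 1826 at day 7 and 1740.5 at day 30, a ratio of 1.43. Both were highest in the untreated cells and lowest at day 2. Cd81 (121 to 387 CPM, 3.20-fold) and Cd63 (349 to 1106 CPM, 3.17-fold), membrane tetraspanins, were higher, but their day 30 epithelial levels of 445 and 1066 CPM were about those of the members. Maf, a transcription factor of mature macrophages, stood at 227 CPM in the untreated cells, 616 at day 2, 193 at day 7 and 128 at day 30, 4.83-fold (4.64 to 5.02) lower. The scavenger receptor Stab1 was 3.97-fold (3.74 to 4.21) lower and the folate receptor Folr2 9.88-fold (7.90 to 12.5) lower. Of the nonclassical monocyte list's 7 measured members, 0 were higher and 1 lower: Cd300ld, an immune receptor, stood at 47.4 CPM at day 2 and 18.01 CPM at day 30.

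MHC class II genes were higher at day 30. Of 9 measured members, 7 were higher and 0 lower, against a background of 8.21% higher, and the list median was 1.65 on the log2 scale. H2-Aa (ENSMUSG00000036594, chr17:34282744-34287823, minus strand), the alpha chain of the I-A molecule, stood at 8591 CPM in the untreated cells, 1612 at day 2, 2285 at day 7 and 6148 at day 30. Day 30 lay above day 2 and day 7 and under the untreated cells, and was 3.81-fold (3.77 to 3.86) that of day 2. H2-Eb1 (ENSMUSG00000060586, chr17:34305867-34316674, plus strand), the beta chain of I-E, stood at 7699 CPM in the untreated cells, 1647 at day 2, 2383 at day 7 and 5614 at day 30, 3.41-fold (3.37 to 3.45) higher. H2-Ab1, the beta chain of I-A, stood at 7438 CPM in the untreated cells, 1564 at day 2, 2093 at day 7 and 4471 at day 30, 2.86-fold (2.82 to 2.89) higher. Cd74, the invariant chain that escorts class II to the endosome, stood at 18789 CPM in the untreated cells, 2824 at day 2, 5784 at day 7 and 11994 at day 30, 4.25-fold (4.21 to 4.29) higher.

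The remaining called class II genes, named after their values were seen, were H2-DMb2 (23.2 to 107 CPM) of the peptide-loading factor, H2-Oa (5.23 to 23.6 CPM) of its inhibitor and Ciita (17.2 to 75.6 CPM), the coactivator that class II genes depend on. H2-DMa (305 CPM at day 2 and 459 CPM at day 30) and H2-DMb1 (221 CPM at day 2 and 369 CPM at day 30) missed the limit. In epithelial barcodes the 10 class II genes summed to 196 and 1703 CPM at day 2 and day 30, against 8223 CPM at day 2 and 29277 CPM at day 30 in the members. Without the 302 and 871 members that had at least 2 dendritic UMIs, the H2-Aa difference was 2.14 on the log2 scale, against 1.92 with them. Dendritic cells with fewer such UMIs stay in, so the part of dendritic cells in this difference was not tested.

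Class II promoters are known for a Y box, an inverted CCAAT element bound by NF-Y. Its letters CTGATTGG were searched on both strands in the 250 bases before each gene's start, in RefSeq promoters of GRCm38.p6. They occur in 1258 of 32851 promoters (3.83%). Of the 7 higher class II genes, 4 had a promoter entry, and 3 of these held the letters; H2-DMb2 did not. H2-DMa and H2-DMb1, measured but not called, had an entry and did not hold them. Nor did H2-Ob, which was under the measured minimum and so could not be called. The 3 are shown because they are the called genes with the match, 5′ to 3′ on each gene's own strand, with the match in capitals. It begins 51 bases before the start in H2-Aa (chr17:34287824-34288073, minus strand), 62 in H2-Eb1 (chr17:34305617-34305866, plus strand) and 46 in H2-Oa (chr17:34092129-34092378, plus strand).
H2-Aa: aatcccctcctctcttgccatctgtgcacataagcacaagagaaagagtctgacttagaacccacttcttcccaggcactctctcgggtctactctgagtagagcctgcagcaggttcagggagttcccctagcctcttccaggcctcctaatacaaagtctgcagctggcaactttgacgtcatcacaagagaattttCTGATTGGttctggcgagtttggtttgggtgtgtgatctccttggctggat
H2-Eb1: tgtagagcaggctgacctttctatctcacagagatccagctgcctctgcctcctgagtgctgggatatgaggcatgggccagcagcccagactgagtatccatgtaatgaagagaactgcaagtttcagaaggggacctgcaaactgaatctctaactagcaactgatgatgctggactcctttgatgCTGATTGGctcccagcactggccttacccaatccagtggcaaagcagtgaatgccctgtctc
H2-Oa: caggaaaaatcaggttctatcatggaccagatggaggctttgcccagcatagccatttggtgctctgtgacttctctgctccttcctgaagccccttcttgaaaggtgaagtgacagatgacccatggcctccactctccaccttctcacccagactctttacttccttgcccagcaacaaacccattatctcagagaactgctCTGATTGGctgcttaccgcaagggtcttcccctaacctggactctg
A match describes these letters only, and no binding was measured here. A pair of other motifs was searched the same way. The letters CACGTGAC occur in 1.85% of promoters, in 5 of 22 lysosome genes with an entry, and not in Ctsk, the 1 higher gene among them. The letters ACGTG, which lie within CACGTGAC, occur in 16.6% of promoters, in 15 of 25 genes of glycolysis and hypoxia, and in Vegfa, the 1 higher gene.

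Dendritic cell genes were higher or not called. Of 11 measured members, 5 were higher and 0 lower, with a median of 0.40. Cd209a, a C-type lectin of monocyte-derived dendritic cells, stood at 86.9 CPM in the untreated cells, 59.1 at day 2, 9.76 at day 7 and 211.4 at day 30, 3.58-fold (3.36 to 3.81) higher, with 2.53 CPM in day 30 epithelial barcodes. Mgl2, another C-type lectin, stood at 794 CPM in the untreated cells, 268 at day 2, 231 at day 7 and 609.9 at day 30, 2.27-fold (2.20 to 2.35) higher. Both calls were lost without the members with dendritic UMIs, of which Cd209a is one of the defining genes. Itgax (CD11c) was 4.75-fold (4.44 to 5.08) higher and the transcription factor Batf3 2.38-fold (2.20 to 2.58) higher, and Irf8, needed for one dendritic lineage, was not called (166 CPM at day 2 and 179 CPM at day 30). The strict dendritic markers were rare in both: Flt3 had a UMI in 1.43% of cells at day 2 and 4.83% at day 30, Zbtb46 in 1.33% of cells at day 2 and 4.17% at day 30 and Xcr1 in 0.0510% of cells at day 2 and 1.61% at day 30. Of the costimulation list's 7 measured members, 2 were higher and 0 lower: the activation marker Cd83 was 6.60004-fold (5.92 to 7.37) higher (18.01 to 119 CPM) and the checkpoint ligand Cd274 3.19-fold (2.72 to 3.77) higher (9.10 to 29.1 CPM). Of the MHC class I list's 13 measured members, 2 were higher and 0 lower, namely H2-Q7 (25.5 to 54.0 CPM) and H2-Q4 (11.5 to 23.1 CPM), while B2m, the light chain, stood at 1407 CPM at day 2 and 1409 CPM at day 30.

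Genes of lipid handling and phagocytic remodelling were higher more often than all genes. Of 19 measured members, 7 were higher and 2 lower, with a median of 0.92. Gpnmb, a transmembrane glycoprotein of lipid-laden macrophages, stood at 0 CPM in the untreated cells, 211.5 at day 2, 603 at day 7 and 607 at day 30. No UMI was found in the untreated cells, where 3 UMIs would be 8.41 CPM, and was 2.87-fold (2.77 to 2.97) higher at day 30 than at day 2. Abca1, which exports cholesterol, was 2.01-fold (1.91 to 2.11) higher, a call that scaling by the median gene already ended. Apoe (ENSMUSG00000002985, chr7:19696109-19699188, minus strand), a lipid carrier, stood at 5416 CPM in the untreated cells, 5916 at day 2, 14059 at day 7 and 12048 at day 30, 2.04-fold (2.02 to 2.05) higher, a call lost under an S100 limit of 20 and when totals left out mitochondrial and ribosomal genes. The tetraspanin Cd9 was 3.03-fold higher (176 to 534 CPM), with 631 CPM in day 30 epithelial barcodes. Plin2, which coats lipid droplets, was 2.39-fold (2.31 to 2.47) lower (526 to 220.0 CPM) and the scavenger receptor Msr1 3.67-fold (3.51 to 3.84) lower (371 to 101 CPM). Spp1 (osteopontin) was not called, at 2031 CPM in the untreated cells, 4626 at day 2, 10487 at day 7 and 3576 at day 30. Spp1 reached 43849 and 12873 CPM in the epithelial barcodes.

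Lysosome genes hardly differed as a list: of 30 measured members, 2 were higher and 2 lower, with a median of 0.21. Ctsk, a collagen-cutting cathepsin, was 10.1-fold (7.93 to 13.2) higher at a low level (3.34 to 33.9 CPM), and the protease Lgmn 2.17-fold (2.11 to 2.22) lower (762 to 352 CPM), the latter not without the limit on Top2a and Mki67. Among proteases and their inhibitors, 4 of 15 measured members were higher and 3 lower. Beside Mmp12, the membrane metalloprotease Mmp14 was 3.80-fold (3.39 to 4.28) higher (17.3 to 65.9 CPM), and the inhibitors Timp2 and Timp3 3.40-fold and 3.32-fold higher, with 289.9 and 549 CPM in day 30 epithelial barcodes. The neutrophil-type proteases Mmp8 and Mmp9 (50.2 to 1.89 CPM and 74.5 to 5.75 CPM) and the protease inhibitor Slpi (47.6 to 3.34 CPM) were lower.

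Chemokine genes went both ways. Of 21 measured members, 6 were higher and 10 lower, with a median of -0.51. Ccl2, which draws Ccr2-bearing monocytes, stood at 0 CPM in the untreated cells, 1032 at day 2, 153 at day 7 and 116 at day 30, 8.87-fold (8.54 to 9.23) lower at day 30. In epithelial barcodes it stood at 25.5 CPM at day 2 and 148 CPM at day 30, above the members there. Cxcl2, which draws neutrophils, was 2.65-fold (2.59 to 2.71) lower (1156 to 437 CPM), and Ccl4 2.87-fold (2.79 to 2.96) lower (703 to 245 CPM).

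The higher chemokines were Ccl8, Ccl17, Ccl5 and Cxcl14 among those named. Ccl8, a ligand of type 2 responses in mouse, stood at 2.80 CPM in the untreated cells, 55.01 at day 2, 385 at day 7 and 185 at day 30, 3.36-fold (3.15 to 3.59) higher. Ccl17, which draws Ccr4-bearing T cells and is made by dendritic cells, stood at 22.4 CPM in the untreated cells, 58.5 at day 2, 95.9 at day 7 and 203 at day 30, 3.46-fold (3.25 to 3.69) higher, and Ccl5 stood at 421 CPM in the untreated cells, 28.9 at day 2, 52.3 at day 7 and 93.3 at day 30, 3.23-fold (2.95 to 3.54) higher, a call lost without the members with dendritic UMIs. Cxcl14 was 7.99-fold (6.75 to 9.51) higher (7.31 to 58.4 CPM). Ccl6 and Ccl9 were near equal, at 1537 CPM at day 2 and 1514 CPM at day 30 and 508 CPM at day 2 and 515 CPM at day 30. Of the chemoattractant receptor list's 9 measured members, 0 were higher and 3 lower: Ccr1 (285 to 84.7 CPM), the complement receptor C5ar1 (251 to 51.02 CPM) and the leukotriene receptor Ltb4r1 (66.5 to 28.7 CPM), while Cx3cr1, the fractalkine receptor, was not called (287 CPM at day 2 and 215 CPM at day 30).

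Of the cytokine list's 12 measured members, 2 were higher and 4 lower, with a median of -0.57. Il1b (interleukin-1 beta) stood at 412 CPM in the untreated cells, 569.9 at day 2, 51.2 at day 7 and 196 at day 30, 2.91-fold (2.82 to 3.01) lower, and its decoy receptor Il1r2 was 18.3-fold (13.99 to 24.2) lower. Il1rn, the natural antagonist of the interleukin-1 receptor, stood at 16.8 CPM in the untreated cells, 47.4 at day 2, 124 at day 7 and 102 at day 30, 2.15-fold (1.998 to 2.32) higher, but not with each cell weighted equally. Tnfsf12 (TWEAK) was 2.23-fold (2.08 to 2.41) higher (47.8 to 107 CPM). The inflammasome sensor Nlrp3 was 2.25-fold (2.05 to 2.47) lower (61.9 to 27.5 CPM) and Ptgs2, the inducible cyclooxygenase, 7.89-fold (7.15 to 8.71) lower (147 to 18.7 CPM). For Il1b, Il1r2, Nlrp3 and Ptgs2, the day 2 epithelial barcodes held 132, 12.9, 4.54 and 31.4 CPM. Subtraction of 30% library-wide RNA turned all 4 differences positive, and the 10% subtraction ended the calls of Il1b and Nlrp3. As negative counts were set to 0, the positive values give no size of a reversal. At day 2 the subtracted profile included the 3019 barcodes left out by the S100 limit. How much of the subtracted part was free RNA was not tested. Tgfb1 was not called (180.3 CPM at day 2 and 150.2 CPM at day 30).

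Growth factor genes went both ways at low levels: of 11 measured members, 4 were higher and 2 lower. Pdgfa stood at 11.2 CPM in the untreated cells, 16.4 at day 2, 85.9 at day 7 and 92.1 at day 30, 5.63-fold (5.02 to 6.33) higher, and Pdgfb was 3.56-fold (3.13 to 4.06) higher (14.3 to 50.9 CPM), both ligands of receptors on fibroblasts and pericytes. Vegfa (8.09 to 29.8 CPM) and Hbegf (11.2 to 37.03 CPM) were higher too. In day 30 epithelial barcodes these 4 stood at 155, 64.4, 24.7 and 169.5 CPM, above the members for all but Vegfa. The matrix protein Tgfbi was 2.04-fold (1.96 to 2.12) lower (337 to 165 CPM), a call lost when doublet calls were left out, and Gdf3 3.28-fold (2.82 to 3.84) lower (30.5 to 9.29 CPM).

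Interferon-response genes were lower more often than all genes: of 17 measured members, 1 was higher and 7 lower, with a median of -0.70. Ifi27l2a stood at 603 CPM in the untreated cells, 1495 at day 2, 642 at day 7 and 336 at day 30, 4.45-fold (4.35 to 4.56) lower. Ifi204, a DNA sensor, was 2.82-fold (2.64 to 3.01) lower, Oasl2 2.43-fold (2.18 to 2.71) lower and the interferon regulator Irf7 2.66-fold (2.31 to 3.06) lower. Ifitm3 and Ly6e did not reach 2-fold (1320.4 CPM at day 2 and 715 CPM at day 30, and 498 CPM at day 2 and 276 CPM at day 30). Gbp2, a guanylate-binding protein, was the exception at 25.2 CPM in the untreated cells, 26.3 at day 2, 59.9 at day 7 and 114 at day 30, 4.32-fold (3.94 to 4.75) higher.

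Fc and pattern receptors were lower where they differed: of 16 measured members, 0 were higher and 6 lower, with a median of -0.60. Fcgr1, the high-affinity receptor for immunoglobulin G, stood at 258 CPM in the untreated cells, 417 at day 2, 237 at day 7 and 103 at day 30, 4.06-fold (3.88 to 4.24) lower, and Fcgr4 was 2.62-fold (2.39 to 2.88) lower, but not without the limit on Top2a and Mki67. The inhibitory receptor Fcgr2b was not called (294 CPM at day 2 and 381 CPM at day 30). Among scavenger and efferocytosis genes, 2 of 16 were higher and 2 lower. Axl, a receptor for dying cells, stood at 95.4 CPM in the untreated cells, 56.9 at day 2, 158 at day 7 and 207 at day 30, 3.63-fold (3.41 to 3.87) higher, and Mfge8, a bridge between dying cells and phagocytes, at 25.2 CPM in the untreated cells, 22.6 at day 2, 47.9 at day 7 and 164 at day 30, 7.25-fold (6.58 to 7.99) higher. Mfge8 also stood at 97.3 CPM in day 30 epithelial barcodes, against 22.5 CPM for Axl. Mrc1, the mannose receptor, was not called (509.7 CPM at day 2 and 325 CPM at day 30). In the complement list, 4 of 12 were higher and 2 lower. C3 (26.7 to 91.7 CPM), the central component, was among the higher genes, with 280.0 CPM in day 30 epithelial barcodes.

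Among 14 measured members of the iron and heme list, 3 were higher (Cp, Trf and Hpgd) and 4 lower, Ftl1 included. Hpgd encodes a prostaglandin-degrading enzyme, so it is not an iron or heme gene although the list holds it. A Hpgd UMI was found in 2.45% of thinned members at day 2 and 16.1% at day 30. Cp, as given above, was higher in day 30 epithelial barcodes than in members. Hmox1 and the iron exporter Slc40a1 (114 to 20.02 CPM) were lower, as was the transferrin receptor Tfrc (20.9 to 8.97 CPM), whereas Trf (transferrin) was 3.55-fold (3.38 to 3.73) higher (95.3 to 338 CPM), with 16.02 CPM in epithelial barcodes. Fth1, the ferritin heavy chain, was not called (10692 CPM at day 2 and 16699 CPM at day 30). Of the S100, annexin and galectin list's 15 measured members, 1 was higher and 4 lower: S100a4, linked to motile cells, stood at 300.1 CPM in the untreated cells, 1633 at day 2, 262 at day 7 and 302 at day 30, 5.41-fold (5.28 to 5.55) lower, and shares 56.8% of its end words with another annotated gene. S100a6 was 2.38-fold (2.35 to 2.41) lower and S100a10 2.21-fold (2.16 to 2.27) lower. The galactose-binding lectin Lgals1 stood at 255 CPM in the untreated cells, 1701 at day 2, 966 at day 7 and 478 at day 30, 3.56-fold (3.48 to 3.63) lower, while the actin-binding Tmsb4x differed little (26866 CPM at day 2 and 21391 CPM at day 30).

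Among 10 measured genes of arginine and polyamine handling, 2 were higher and 2 lower. Beside lower Arg1, the transporter Slc7a2 was 13.4-fold (10.1 to 18.1) higher (2.52 to 33.8 CPM) and Ass1, which makes the arginine precursor, 3.13-fold (2.73 to 3.59) higher (13.1 to 40.9 CPM). Among 28 measured transcription factors, 5 were higher and 4 lower. Bhlhe40 stood at 70.1 CPM in the untreated cells, 53.4 at day 2, 118 at day 7 and 182 at day 30, 3.40-fold (3.19 to 3.64) higher, and its relative Bhlhe41 was 3.55-fold (3.06 to 4.12) higher; both are known in macrophage self-renewal. Klf4 was 2.08-fold (1.99 to 2.17) higher (145 to 301 CPM). Cebpb, a driver of inflammatory transcription, stood at 129 CPM in the untreated cells, 739.9 at day 2, 368 at day 7 and 268 at day 30, 2.76-fold (2.68 to 2.84) lower. Among 22 measured immediate early genes, which tissue digestion also induces, 3 were higher and 2 lower: Egr1 (199 to 638 CPM), Egr2 (39.03 to 116 CPM) and Fosb (143 to 417 CPM) were higher, and Fos (1519.7 CPM at day 2 and 1459 CPM at day 30) and Junb (1035 CPM at day 2 and 861 CPM at day 30) were not called. Egr1 stood at 325 and 868 CPM in epithelial barcodes and Fosb at 133 and 439.7 CPM, so both were higher there too.

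Cholesterol synthesis genes were higher more often than all genes. Of the cholesterol synthesis list's 11 measured members, 6 were higher and 0 lower, with a median of 0.67. Hmgcs1, an early enzyme, stood at 129 CPM in the untreated cells, 27.2 at day 2, 64.8 at day 7 and 58.8 at day 30, 2.16-fold (1.96 to 2.39) higher, and Scd2, a fatty acid desaturase, was 2.40-fold (2.22 to 2.59) higher (42.0 to 101 CPM). Cyp51, a later enzyme, lay at the 2-fold limit (2.05-fold). Of 26 measured genes of oxidative phosphorylation, 0 were called, with a median of -0.28. Of 23 genes of glycolysis and hypoxia only Vegfa was called, and Gapdh stood at 1288 CPM at day 2 and 871 CPM at day 30. Genes of DNA replication and mitosis outside the rule were lower (11 of 16, median -0.92), a list that the limit on Top2a and Mki67 acts on. The replication helicase subunit Mcm7 stood at 72.2 CPM at day 2 and 15.4 CPM at day 30 and Stmn1 at 109.6 CPM at day 2 and 40.9 CPM at day 30. The remaining lists held few calls: 1 higher and 0 lower of 19 antioxidant genes, 1 and 0 of 13 heat shock genes, 0 and 1 of 11 eicosanoid genes, and 3 and 3 of 18 adhesion genes.

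**Figure D3:**
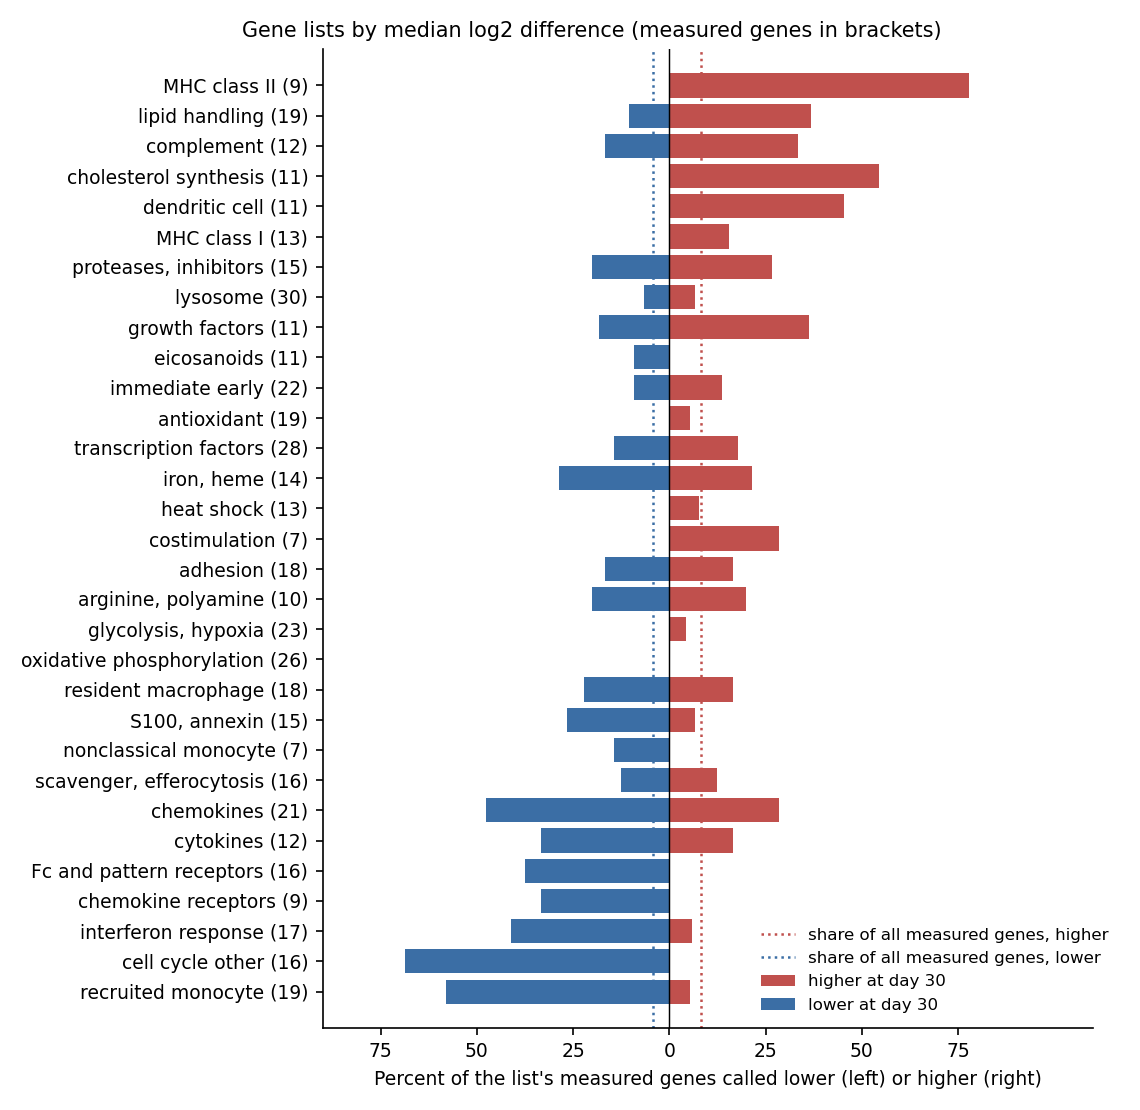
For each of 31 gene lists, the percent of measured members called higher (right, red) or lower (left, blue) at day 30, with dotted lines at 8.21% and 4.17%, the shares over all 6238 genes. MHC class II genes stand out on the right with 7 of 9, recruited monocyte and cell cycle genes on the left, and oxidative phosphorylation has 0 calls.

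For the genes given here, differences in summed level went with differences in the share of cells, though not always to the same degree. After thinning to 3500 UMIs, Chil3 had a UMI in 46.7% (44.5 to 49.0%) of day 2 and 0.0826% (0.0100 to 0.298%) of day 30 members, with 2.16% of day 2 epithelial barcodes. F13a1 had a UMI in 37.1% of cells at day 2 and 2.98% at day 30. Ly6c2, the surface antigen of inflammatory monocytes, had a UMI in 14.9% of cells at day 2 and 0.702% at day 30. Ccr2 was found in most members of both, 81.8% of cells at day 2 and 60.1% at day 30.

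Upward, Mmp12 was found in 12.8% (11.3 to 14.3%) and 63.9% (61.9 to 65.8%) of members, and in 26.1% of day 30 epithelial barcodes. H2-M2 was found in 0.153% and 30.4% of members, Ear2 in 5.26% and 45.2% and Gpnmb in 8.16% and 31.4%, with 3.61%, 4.44% and 8.89% of day 30 epithelial barcodes. H2-Aa was found in 51.1% and 95.2%, beside 14.03% and 66.4% of epithelial barcodes, which thus differed in the same direction. Unthinned, H2-Aa was found in 65.6% and 99.3% of members. Unthinned shares of Retnla, Mmp12 and Chil3 were 57.9%, 80.3% and 0.248% at day 30.

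**Figure D4:**
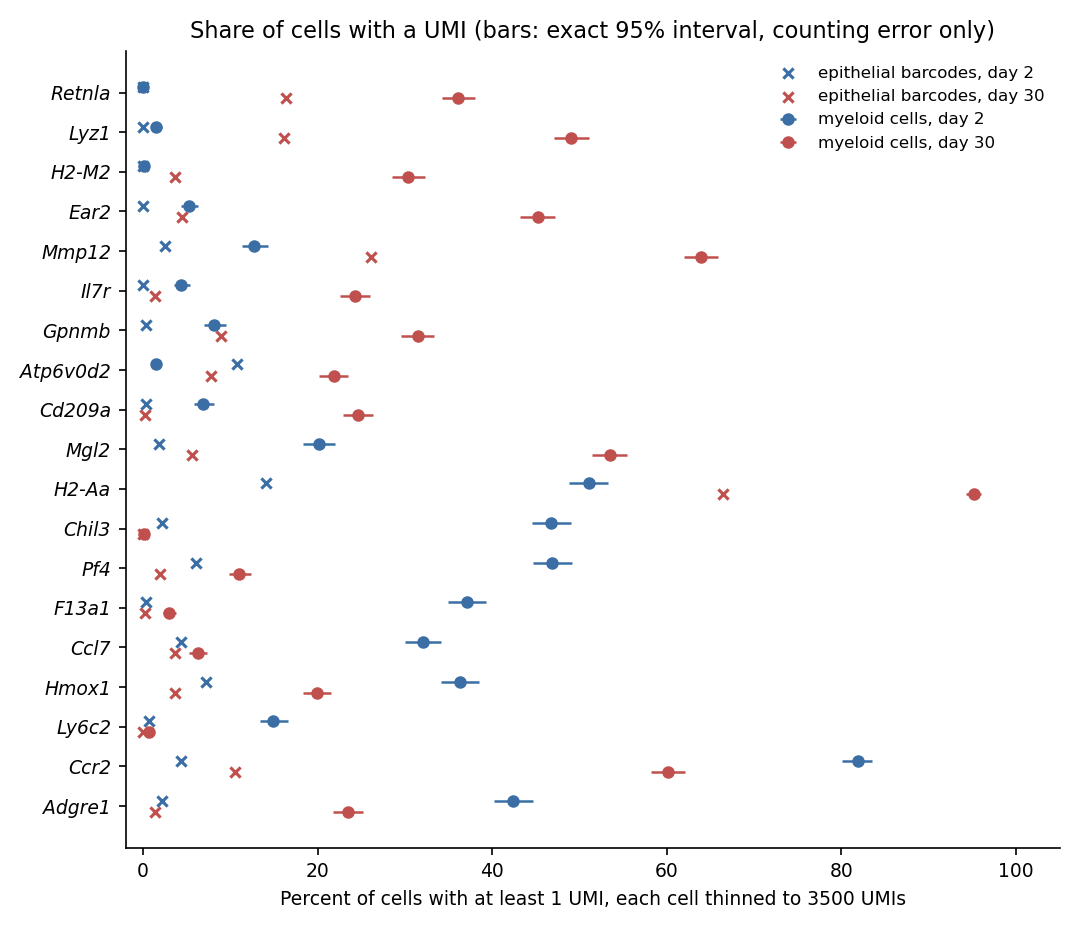
Percent of members with at least 1 UMI of each gene after thinning every cell to 3500 UMIs (points, with exact 95% intervals for counting error) at day 2 (blue) and day 30 (red), with crosses for epithelial barcodes. Retnla, Lyz1 and H2-M2 are near 0 at day 2, Chil3 is near 0 at day 30, and the day 30 cross of H2-Aa stands at 66.4%.

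The day 30 genes did not fill the same cells. Members of 1 library are not replicates, so these shares describe that library. Among 501 thinned day 30 members with at least 2 Retnla UMIs and 1546 with none, Ear2 had a UMI in 84.8% (81.4 to 87.9%) against 34.3% (31.9 to 36.7%), and Fn1 in 88.6% (85.5 to 91.3%) against 41.01% (38.5 to 43.5%). Ccr2 was found in 90.02% (87.1 to 92.5%) against 50.7% (48.2 to 53.2%), Lyz1 in 78.2% (74.4 to 81.8%) against 39.8% (37.4 to 42.3%) and Mgl2 in 75.05% (71.0 to 78.8%) against 46.8% (44.3 to 49.4%). Gpnmb was rarer where Retnla was present, 14.2% (11.2 to 17.5%) against 36.5% (34.1 to 39.002%). C1qa was closer, at 64.3% (59.9 to 68.5%) against 68.9% (66.5 to 71.2%).

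Among 450 day 30 members with at least 2 Gpnmb UMIs and 1659 with none, other genes were the more common ones. Atp6v0d2 was found in 64.7% (60.1 to 69.1%) against 10.3% (8.89 to 11.9%), Cd9 in 90.000000% (86.8 to 92.6%) against 46.6% (44.2 to 49.0%) and Il7r in 52.0% (47.3 to 56.7%) against 16.03% (14.3 to 17.9%). Ccr2 was found in 17.3% (13.9 to 21.2%) against 72.3% (70.1 to 74.4%), Mgl2 in 16.4% (13.1 to 20.2%) against 65.0% (62.7 to 67.3%) and Ear2 in 16.4% (13.1 to 20.2%) against 54.1% (51.7 to 56.5%). Lyz1 was near equal by Gpnmb, 48.2% (43.5 to 52.9%) against 48.6% (46.2 to 51.02%). Mmp12 was common with both anchors: 82.0% (78.1 to 85.4%) against 59.1% (56.7 to 61.5%) by Gpnmb and 79.6% (75.8 to 83.1%) against 60.2% (57.7 to 62.6%) by Retnla. Retnla was thus found more often with Ear2, Fn1 and Ccr2, and Gpnmb more often with Atp6v0d2, Il7r and Cd9.

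At day 2 the anchors were Chil3, Arg1, Pf4 and Mmp12. Among 730 members with at least 2 Chil3 UMIs and 1044 with none, Vcan was found in 32.9% (29.5 to 36.4%) against 7.47% (5.95 to 9.24%), Ly6c2 in 26.3% (23.1 to 29.7%) against 7.28% (5.78 to 9.03%) and Fn1 in 61.9% (58.3 to 65.5%) against 26.4% (23.8 to 29.2%), and H2-Aa in 40.1% (36.6 to 43.8%) against 60.1% (57.0 to 63.04%). Among 113 members with at least 2 Arg1 UMIs and 1762 with none, Ppbp was found in 42.5% (33.2 to 52.1%) against 3.12% (2.36 to 4.04%), Hmox1 in 79.6% (71.0 to 86.6%) against 32.6% (30.4 to 34.9%), Pf4 in 85.0% (77.0 to 91.0%) against 43.4% (41.1 to 45.8%) and Thbs1 in 63.7% (54.1 to 72.6%) against 20.7% (18.8 to 22.6%). Ccr2 was rarer with Arg1, 51.3% (41.7 to 60.8%) against 84.2% (82.4 to 85.8%), as was H2-Aa, 17.7% (11.2 to 26.003%) against 53.5% (51.1 to 55.8%). For Chil3 the intervals overlap, 50.4% (40.9 to 60.0%) against 46.7% (44.3 to 49.0%).

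Among 687 day 2 members with at least 2 Pf4 UMIs and 1041 with none, C1qa was found in 60.6% (56.8 to 64.2%) against 28.5% (25.8 to 31.4%), Apoe in 94.5% (92.5 to 96.1%) against 64.5% (61.5 to 67.4%), F13a1 in 55.6% (51.8 to 59.4%) against 26.6% (23.9 to 29.4%) and Hmox1 in 55.6% (51.8 to 59.4%) against 24.5% (21.9 to 27.2%). Ly6c2 was rarer with Pf4, 6.26% (4.57 to 8.34%) against 21.2% (18.8 to 23.8%), as was H2-Aa, 34.6% (31.1 to 38.3%) against 60.6% (57.6 to 63.6%). Ppbp was found in 13.4% (10.9 to 16.2%) against 1.25% (0.667 to 2.13%). Among 149 members with at least 2 Mmp12 UMIs and 1710 with none, H2-Aa was found in 81.2% (73.999 to 87.1%) against 47.6% (45.2 to 50.001%), while F13a1 was found in 8.72% (4.73 to 14.5%) against 40.4% (38.01 to 42.7%) and Chil3 in 20.1% (14.02 to 27.5%) against 50.2% (47.8 to 52.6%). C1qa intervals overlapped, 34.2% (26.7 to 42.4%) against 41.8% (39.5 to 44.2%).

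The members span a wide range of C1q, so the comparison was repeated above and under 20 UMIs of C1qa, C1qb and C1qc per 10000. This is a cut along a range, not a cell type: 296 day 2 and 378 day 30 members lay between 10 and 40. C1q-high members were 693 (35.4%, 33.2 to 37.5%) at day 2 and 1201 (49.6%, 47.6 to 51.6%) at day 30. In this range 510 of 6140 measured genes (8.31%) were higher and 234 (3.81%) lower at day 30. In C1q-low members, 1267 and 1219, 593 of 6294 (9.42%) were higher and 330 (5.24%) lower. Of the 512 genes higher over all members, 367 were higher in both ranges, 42 in C1q-high only, 100 in C1q-low only and 3 in neither. Of the 260 lower genes, 165 were lower in both, 26 in C1q-high only, 67 in C1q-low only and 2 in neither.

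Most of the leading genes kept their direction in both ranges. Retnla reached 874 CPM at day 30 in C1q-high and 1145 CPM in C1q-low members, from 0.126 and 0 CPM at day 2. Mmp12 stood at 117 CPM at day 2 and 1927 at day 30 in C1q-high members and 142 CPM at day 2 and 2390.3 at day 30 in C1q-low members. H2-Aa stood at 1191 CPM at day 2 and 5400.1 at day 30 in C1q-high and 1875 CPM at day 2 and 6978 at day 30 in C1q-low members.

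1 named higher gene, Apoe, went the other way with C1q. Apoe stood at 9076 CPM at day 2 and 21063 at day 30 in C1q-high members, but at 3940.5 CPM at day 2 and 2040.2 at day 30 in C1q-low members, a log2 difference of -0.95. Ccl8 stood at 114 CPM at day 2 and 336 at day 30 in C1q-high members and was near equal in C1q-low members (18.1 CPM at day 2 and 17.6 at day 30). Cd209a was higher in C1q-low members, at 94.6 CPM at day 2 and 415 at day 30, against 2.39 CPM at day 2 and 27.8 at day 30 in C1q-high. Ccl17 went the same way, at 92.1 CPM at day 2 and 375 at day 30 in C1q-low and 4.78 CPM at day 2 and 47.2 at day 30 in C1q-high members. Fcgr1 stood at 446 CPM at day 2 and 174 at day 30 in C1q-high and 399 CPM at day 2 and 23.4 at day 30 in C1q-low members, and C5ar1 at 277 CPM at day 2 and 86.4 at day 30 and 235 CPM at day 2 and 11.8 at day 30. Plac8 stood at 104.97 CPM at day 2 and 31.7 at day 30 in C1q-high and 591 CPM at day 2 and 58.3 at day 30 in C1q-low members. Differences between the ranges were not tested, as each is 1 library a side.

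**Figure D5:**
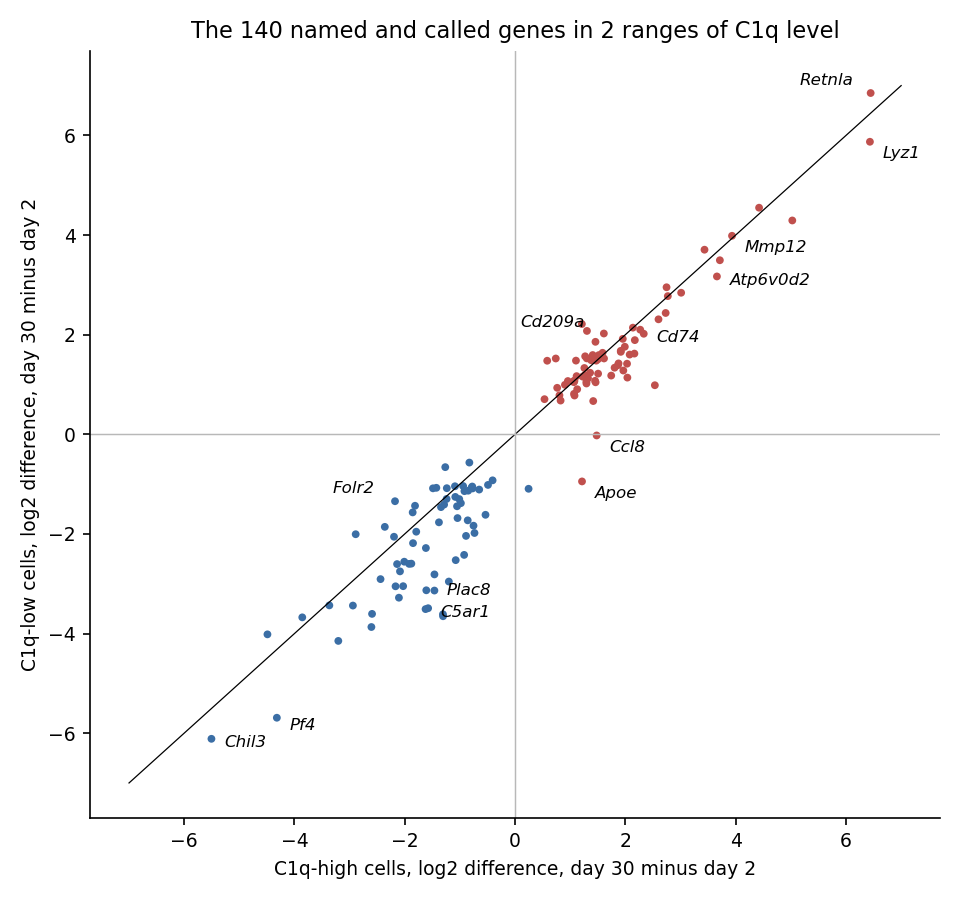
Log2 difference, day 30 minus day 2 on the log2(CPM + 10) scale, of the 140 named and called genes in C1q-high members (x axis) and C1q-low members (y axis), red where higher and blue where lower over all members, with equal differences on the line. Apoe lies under 0 on the y axis and above it on the x axis, and Ccl8 lies near 0 on the y axis.

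Day 7 members stood nearer day 30 than day 2 for 405 of the 512 higher and 222 of the 260 lower genes, with 303 cells of greater depth. These genes were chosen by their difference between day 2 and day 30. The share over all measured genes was not taken, so the counts describe the called genes only. Arg1, at 481 CPM at day 7 against 204.6 and 26.3, was an exception, as was Cd209a, at 9.76 CPM against 59.1 and 211.4.

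Markers of other cell types moved between the libraries, and the part of this in the results was not tested. Of 6 measured proximal tubule genes (of 17), 6 were higher at day 30: the list summed to 102 CPM at day 2 and 780.2 CPM at day 30 in members and to 757 and 4403 CPM in epithelial barcodes. At least 2 UMIs of the epithelial genes Epcam, Cdh1, Cdh16, Krt8, Krt18 and Krt19 were found in 5.36% (4.40 to 6.45%) of day 2 and 15.7% (14.3 to 17.2%) of day 30 thinned members. All 6 measured fibroblast and pericyte genes of 12 were higher, among them Col1a2 (24.1 to 78.96 CPM) and Col3a1 (37.96 to 85.2 CPM). That list summed to 159.6 CPM at day 2 and 497 CPM at day 30 in members. In epithelial barcodes it summed to 262 CPM at day 2 and 1259 CPM at day 30, above the members in both libraries. Of 10 measured neutrophil genes outside the rule, 9 were lower. The list summed to 658 CPM at day 2 and 119.6 CPM at day 30 in members and 1567 and 606 CPM in epithelial barcodes. Its members did not share this order. At day 2, Lcn2 had a UMI in 11.8% of thinned members and 57.6% of epithelial barcodes, but Csf3r in 26.4% and 9.71%. At day 30, Csf3r had a UMI in 4.26% of thinned members. The list's secondary granule genes Ngp and Camp were at 0.0484 and 0.0968 CPM at day 2 and at 0 and 0 CPM at day 30. At day 2, the neutrophil marker Retnlg had a UMI in 6.02% of thinned members and 4.68% of epithelial barcodes. Ly6g had one in 0.204% and 0%. The part of neutrophils among the members was not tested. The 16 T and NK genes summed to 85.8 CPM at day 2 and 287 CPM at day 30, of which Il7r and Ccl5 made up most. B cell, mast cell and red cell lists had 0 measured members. Without members that had at least 2 epithelial UMIs, 455 genes were higher and 272 lower, and without Scrublet's doublet calls 471 and 257.

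Clu (ENSMUSG00000022037, chr14:65968483-65981547, plus strand), the gene the reporter follows, stood at 179.5 CPM in the untreated cells, 399.7 at day 2, 412 at day 7 and 190.4 at day 30, 2.10-fold (2.03 to 2.18) lower at day 30. The epithelial barcodes held 6959 CPM at day 2 and 1184 CPM at day 30. The call was lost without doublet calls (-0.86 on the log2 scale), without members with epithelial UMIs (-0.57) and with 10% of library-wide RNA subtracted (-0.27). Whether members entered the sort through their own reporter signal was not tested, since the reporter's transcript was not analysed here.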

How the data were processed

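The deposited files hold raw UMI counts per gene and cell for 4 libraries, made by the authors with Cell Ranger 7.0.1 against mm10, per the submitters' processing notes; the file headers name software version 3.0.1. Nothing in the sources used here says that doublets were removed. Counts were read with Python 3.11.15, numpy 2.4.6, scipy 1.17.1, pandas 2.3.3 and scanpy 1.11.5, and figures drawn with matplotlib 3.10.9.

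Counts of the members were summed per library and scaled to CPM. Genes entered the comparison with 20 CPM or more in 1 of the libraries and 20 UMIs over both, and a call needed a 2-fold difference with an exact 95% interval, from the binomial split of its 2 counts, that left out 1. Log2 differences used CPM + 10. Shares of cells were taken after thinning each cell to 3500 UMIs (no member was shallower) and carry Clopper-Pearson 95% intervals. The calling steps were tested on simulated data. With 1 library per group there is no replicate check, no p-value and no spread between animals.

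The members and the gene lists (31 for roles and 12 for other cell types) were chosen with earlier results of these data known. Genes named were, outside the 7 genes of the rule, the 12 largest called folds in each direction with at least 100 CPM, up to 4 called members per list and direction and the 2 uncalled with the highest CPM, up to 3 members of each list for other cell types, and Clu. Other genes named (the marker checks, co-detected and remaining class II genes) were chosen after their values were seen. 12 list genes are not among the gene names used here. Gene positions came from GENCODE M21 and promoters from RefSeq (GRCm38.p6). Shared 31-base words were counted over the last 400 bases of each gene's longest transcript. Alternatives changed the scaling, the limits on genes and cells, doublets (Scrublet), and library-wide RNA, of which 10 or 30% of each profile was subtracted. The library-wide profile was summed over all barcodes of the library within the limits, members included. Counts that turned negative after subtraction were set to 0.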

Additional observations from a re-analysis of the deposited data

Results flagged for a closer look

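7 named genes were called in opposite directions in the members and in the epithelial barcodes of the same libraries; the difference between the 2 kinds of barcode was not tested, as each has 1 library a side. The ratios of day 30 to day 2 CPM follow. Plac8 had a ratio of 0.110 in members and 2.66 in epithelial barcodes, Maf 0.207 and 3.04, Ccl2 0.113 and 5.81, and Lgals1 0.281 and 2.15. Ccl5 had a ratio of 3.23 in members and 0.244 in epithelial barcodes, Il1rn 2.15 and 0.368, and Col3a1 2.24 and 0.496.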

How the results depend on the processing

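The genes higher at day 30, 512 as reported, became 217 at a minimum of 50 CPM, 2756 with no CPM minimum, 1069 at 1.5-fold and 264 at 3-fold. The genes lower at day 30, 260 as reported, became 391 without the limit on Top2a and Mki67, 158 at a minimum of 50 CPM, 704 with no CPM minimum, 770 at 1.5-fold and 99 at 3-fold. Under the remaining scalings and cell limits, the counts ran from 455 to 594 higher and from 249 to 330 lower. Of 140 named calls, 110 (30% of library-wide RNA subtracted) to 139 were kept. Subtracting 30% turned the sign, on the log2 scale, for Ifitm1 (0.55), G0s2 (0.77), Il1b (4.65), Ptgs2 (1.67), Nlrp3 (0.30), Il1r2 (0.31), Mmp9 (0.73) and Csf3r (1.40). Negative counts were set to 0 in this step, so these values give no size of a reversal. The true share of such RNA was not measured. Apoe turned in C1q-low members (-0.95), where Ccl8 was near 0 (-0.024), and Hsd11b2 in C1q-high members (0.24); the cause was not tested. Scaling to the median gene shifted log2 values by -0.0068. Scrublet called 702 day 2 and 556 day 30 barcodes, 103 and 263 of them members. No paired analysis was possible because each group has 1 library. Depth limits low genes: 3 UMIs correspond to 0.145 CPM at day 2, 0.121 at day 30 and 8.41 in the untreated members.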
